A study of Mus musculus with 8 samples.

Results

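The hypoxia response of wild-type (WT) fibroblasts was described from 4 of the 8 libraries of the series, 2 kept at 1% oxygen and 2 kept at 21% oxygen. Libraries were assigned by their labels, and the response was described over the 12107 of 17091 features that reached 10 or more in 2 or more of the series' 8 libraries. All cells were immortalised fibroblasts from mouse skin, that is, connective tissue cells able to divide without limit in culture, and all were harvested after 24 hours at their oxygen level. The WT cells came from the C57BL/6 strain. The other 4 libraries, used here for the shared estimate of spread and for a side-by-side view, came from cells labelled mir210lox/lox and named KO, 2 at each oxygen level. The labels name no Cre for these cells, so whether the flanked Mir210 gene had been removed is not known from them. They also leave unsaid whether 2 libraries of a group are 2 cultures, so the p values rest on a spread between libraries that may be technical only.

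Cells sense oxygen through enzymes that use it as a substrate. Prolyl hydroxylases of the EGLN family mark the alpha subunits of hypoxia-inducible factor (HIF) for destruction by way of the VHL protein, and when oxygen is short the alpha subunits escape, pair with ARNT and bind a short DNA core in the promoters and enhancers of their targets. The known targets raise glucose uptake, glycolysis and lactate export, hold pyruvate back from the mitochondria, start the removal of mitochondria, call for blood vessels and alter collagen processing. Fibroblasts make most of the collagen of the skin.

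Each value is the authors' normalised read count of a gene in a library, with 1 as the lowest value. The spacing of the low values put the depth at an estimated 6.83 M to 10.2 M assigned reads in the WT libraries. The summed level of the fibroblast list was 72061 and 81819 in normoxia and 69553 and 96859 in hypoxia. In it S100a4, a calcium-binding protein, was at 18535 and 19194 in normoxia and 19586 and 39734 in hypoxia. Pdgfrb, the receptor for platelet-derived growth factor B, was at 654 and 882 against 548 and 583. Pi16, of the same list, was at 1 in all 8 libraries. Of 19 fibroblast genes, 18 were tested and 0 were called, with a median log2 difference of -0.01 (-0.44 without WT normoxia replicate 1 and 0.22 without WT normoxia replicate 2). Lists of other cell types held both genes at the floor and genes well above it. The summed level of the macrophage list was 99 and 85 in normoxia and 101 and 84 in hypoxia, and that of the endothelial list was 62 and 138 against 86 and 146, with Krt5 (keratinocytes) at 1 in all 4. The keratinocyte list summed to 743 to 1061, most of it Perp (685 to 1003), the Schwann cell list to 94 to 161, the muscle list to 1183 to 1909 and the adipocyte list to 259 to 705, and none of their tested members was called. Mir210 itself was at 1 in all 8 libraries, so the table does not show its induction and does not check the KO label. Both WT libraries that carry the number 2 in their names shared levels that set them apart from both libraries numbered 1. By the mean log2 difference, 535 features were at least 2-fold higher in the libraries numbered 2 without overlap with those numbered 1, and 383 were at least 2-fold higher in hypoxia without overlap with normoxia.

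Low oxygen raised 13 genes in WT fibroblasts and lowered 0 at an adjusted p under 0.05 (limma over all tested features). Those that rose cover oxygen sensing (Egln3, Kdm3a), glycolysis and the fate of its products (Pfkl, Pdk1, Slc16a3, Car9), mitochondria (Bnip3, Fam162a, Higd1a, Mgarp, Ak4), a secreted peptide (Edn2) and a protein of the HIF programme with ankyrin repeats (Ankrd37). They make up 0.107% of the features tested, and the share called lower was 0%. At an unadjusted p under 0.05, 766 features passed, 529 higher and 237 lower, where 605 would pass by chance. The genes lie on 11 different chromosomes. Egln3 alone was called when WT hypoxia replicate 2 was left out, and 6 to 8 of the 13 when any other WT library was left out (7 and 6 with WT normoxia replicate 1 or 2 left out, and 8 with WT hypoxia replicate 1 left out). With no filter on low values 6 of the 13 were called (Egln3, Bnip3, Slc16a3, Ankrd37, Car9 and Pdk1).

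**Figure D1:**
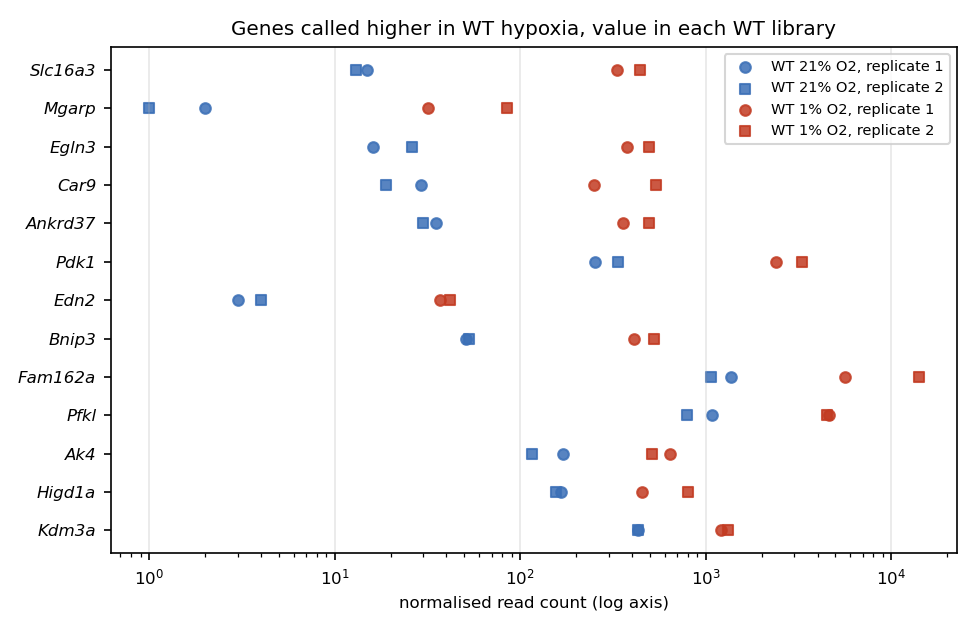
Normalised read count (log axis) of each of the 13 genes that rose in WT hypoxia, 1 row per gene and 1 point per WT library, blue at 21% and red at 1% oxygen, circles for replicate 1 and squares for replicate 2. In every row both red points lie to the right of both blue points, with the hypoxia points of Fam162a (5635 and 14016) among the most spread.

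The promoters of the 6 genes with the smallest adjusted p are shown because the core bound by HIF can be read in them directly. Only genes with at least 1 match were to be printed. Where a gene had several windows, the first with a match was taken, so a core in each printed window was fixed in advance. They are RefSeq windows (GRCm38.p6) from 250 bases before to 50 bases after the annotated start, printed 5′ to 3′ in the direction of the gene. Capitals mark the cores searched, ACGTG and GCGTG, on either strand (so also CACGT and CACGC), and overlapping matches run together. The Egln3 window is chr12:54203825-54204124 on the minus strand, that of Bnip3 is chr7:138909457-138909756 on the minus strand and that of Slc16a3 is chr11:120948817-120949116 on the plus strand. The Ankrd37 window is chr8:45999801-46000100 on the minus strand, that of Car9 is chr4:43506776-43507075 on the plus strand and that of Pdk1 is chr2:71872974-71873273 on the plus strand; Pdk1 has 2 annotated windows, of which 1 is printed.
Egln3: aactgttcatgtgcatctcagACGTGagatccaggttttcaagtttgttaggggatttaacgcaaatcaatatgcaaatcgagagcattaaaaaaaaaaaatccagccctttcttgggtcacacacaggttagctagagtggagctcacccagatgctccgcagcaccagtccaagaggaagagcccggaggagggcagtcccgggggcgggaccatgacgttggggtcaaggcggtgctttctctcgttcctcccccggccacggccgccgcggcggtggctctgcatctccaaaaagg
Bnip3: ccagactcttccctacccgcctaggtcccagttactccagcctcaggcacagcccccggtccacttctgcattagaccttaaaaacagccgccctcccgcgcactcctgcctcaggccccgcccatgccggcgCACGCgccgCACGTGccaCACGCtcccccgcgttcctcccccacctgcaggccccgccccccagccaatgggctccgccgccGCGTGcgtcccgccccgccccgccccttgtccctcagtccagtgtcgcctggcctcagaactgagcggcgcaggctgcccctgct
Slc16a3: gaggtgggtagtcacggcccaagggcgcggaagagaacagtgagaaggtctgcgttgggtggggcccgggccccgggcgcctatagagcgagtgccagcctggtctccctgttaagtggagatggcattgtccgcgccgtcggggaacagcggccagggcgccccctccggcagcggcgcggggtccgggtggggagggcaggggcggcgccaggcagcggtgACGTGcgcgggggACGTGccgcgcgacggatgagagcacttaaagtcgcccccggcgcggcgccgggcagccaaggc
Ankrd37: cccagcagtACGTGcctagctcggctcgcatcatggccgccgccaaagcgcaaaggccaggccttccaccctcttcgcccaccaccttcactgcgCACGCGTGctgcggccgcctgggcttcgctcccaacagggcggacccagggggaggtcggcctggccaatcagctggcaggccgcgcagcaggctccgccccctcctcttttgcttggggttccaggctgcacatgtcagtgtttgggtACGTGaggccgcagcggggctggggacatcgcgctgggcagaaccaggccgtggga
Car9: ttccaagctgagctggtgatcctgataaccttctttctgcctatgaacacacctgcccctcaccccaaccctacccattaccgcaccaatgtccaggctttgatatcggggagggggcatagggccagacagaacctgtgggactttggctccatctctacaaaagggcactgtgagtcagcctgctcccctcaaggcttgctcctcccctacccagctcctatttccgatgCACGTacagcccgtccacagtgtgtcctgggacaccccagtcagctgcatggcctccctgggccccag
Pdk1: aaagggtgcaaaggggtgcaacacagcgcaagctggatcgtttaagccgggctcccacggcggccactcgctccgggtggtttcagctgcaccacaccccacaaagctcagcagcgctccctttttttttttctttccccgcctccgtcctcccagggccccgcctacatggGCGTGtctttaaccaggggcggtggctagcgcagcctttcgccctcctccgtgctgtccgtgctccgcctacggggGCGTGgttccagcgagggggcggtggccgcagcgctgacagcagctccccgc

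Egln3 and Car9 held 1 match each, Slc16a3 and Pdk1 2 each, Ankrd37 4 and Bnip3 5. In Bnip3 2 of the matches are the palindrome CACGTG read on both strands. All 13 genes that rose had at least 1 core in a window, 9 of them ACGTG and 9 GCGTG. By window, 16 of their 19 had a core, beside 62.4% of the 11240 windows of tested genes. Cores this short are common: 46.7% of 27025 genes with a window had at least 1, and 68.8% of the 8792 tested genes with a window (29.8% for ACGTG and 57.3% for GCGTG). A match is a description of the letters and not a measured binding site.

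In the oxygen-sensing machinery, a hydroxylase rose and the transcription factor itself did not pass the test. Egln3, the prolyl hydroxylase best known as a target of HIF, was at 16 and 26 in normoxia and at 375 and 492 in hypoxia. It rose by 4.33 ± 0.30 on the log2 scale (SE, adjusted p = 4.7e-04), the smallest p of all features. Its relative Egln1, the main oxygen sensor of most cells, was at 686 and 613 against 1302 and 1183 (log2 difference 0.94 ± 0.21, adjusted p = 0.337), without overlap but short of the threshold. Egln2, the third family member, was at 486 and 406 against 427 and 423. Vhl, which targets hydroxylated HIF, was at 439 and 406 against 594 and 576, and Hif1an, which blocks the HIF activation domain, at 317 and 298 against 280 and 240. P4htm, a membrane-bound prolyl hydroxylase, was near the detection limit at 9 and 17 against 3 and 6. Of the 6 hydroxylase and VHL genes, 1 was called, beside 0.107% of all tested features. The list median was 0.20 (0.11 without WT normoxia replicate 2), beside -0.02 over all tested features.

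Hif1a mRNA was at 1500 and 1662 in normoxia and 1556 and 1719 in hypoxia, a log2 difference of 0.05 ± 0.23. Epas1, which encodes HIF-2 alpha, was at 10 and 11 against 10 and 7, where counting error alone is large. The partner Arnt was at 246 and 285 against 216 and 217, and Arnt2, its relative, at 63 and 149 against 39 and 55 (-1.05 ± 0.39, adjusted p = 0.767). None of these 4 subunit genes was called, and their median difference was -0.29 (-0.18 without WT hypoxia replicate 2). These data measure RNA only, whereas HIF alpha is controlled at the level of its protein.

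Kdm3a, a demethylase of histone H3 lysine 9 that also uses oxygen, was at 432 and 429 in normoxia and rose to 1208 and 1316 (1.55 ± 0.23, adjusted p = 0.0411). It was the only 1 of 18 oxygen-dependent demethylases tested that passed, beside 0.107% of all tested features. Kdm4b, another demethylase of lysine 9, was at 158 and 141 against 311 and 327 (1.09 ± 0.28, adjusted p = 0.48). Kdm2a, which acts on lysine 36, was at 960 and 942 against 704 and 620, and Jmjd6 at 645 and 434 against 755 and 710. Across the 18, 4 were higher and 6 lower without overlap, beside 18.9% and 19.9% of all tested features.

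Values of most glycolytic genes were higher in hypoxia, and 1 gene passed the test. Among 16 genes of glucose uptake and upper glycolysis, 1 was called (Pfkl), 8 had an unadjusted p under 0.05, all higher, and the median difference was 0.52. Over all 12107 tested features 13 were called, and 529 were higher at an unadjusted p under 0.05. Pfkl, the liver-type phosphofructokinase at the committed step, was at 1084 and 793 in normoxia and rose to 4603 and 4499 (2.29 ± 0.31, adjusted p = 0.0272). Its platelet-type relative Pfkp was at 725 and 656 against 1391 and 1516 (1.07 ± 0.24, adjusted p = 0.337). Gpi1, which makes fructose 6-phosphate, was at 934 and 678 against 1896 and 1795 (1.21 ± 0.25, adjusted p = 0.234), and Aldoa, the aldolase, at 4668 and 3567 against 10795 and 11342 (1.44 ± 0.33, adjusted p = 0.337). Both hypoxia values lay above both normoxia values in each. Chosen after its values were seen, the glucose transporter Slc2a1 was at 1058 and 648 against 2142 and 1589 (1.15 ± 0.27, adjusted p = 0.366), whereas its relative Slc2a3 was at 24 and 29 against 12 and 19.

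In lower glycolysis 0 of 10 tested genes were called, yet all 10 differences were positive, 7 without overlap and at least 2-fold, where 3.16% of all features were that much higher. Tpi1, the triose phosphate isomerase, was at 3207 and 2543 in normoxia and 10595 and 13741 in hypoxia (2.08 ± 0.34, adjusted p = 0.0699). Ldha, which turns pyruvate into lactate, was at 3942 and 2603 against 13047 and 13539 (2.05 ± 0.37, adjusted p = 0.132). Pgk1, the first ATP-making step, was at 307 and 260 against 954 and 869 (1.68 ± 0.29, adjusted p = 0.103), and Eno1, the enolase, at 467 and 337 against 932 and 1134 (1.37 ± 0.27, adjusted p = 0.211). Both hypoxia values of these 4 lay above both normoxia values, yet they did not pass the test over all features. Tpi1, Ldha and Pgk1 did pass with the length trend removed and with array weights. The median difference of the 10 was 1.32. Gapdh, chosen after its values were seen, was at only 26 and 27 against 76 and 62; it has many near-identical copies in the genome, so its values are uncertain.

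In the export of lactate and acid from the cell 2 genes rose. Slc16a3, the lactate exporter MCT4, was at 15 and 13 in normoxia and rose to 333 and 443 (4.69 ± 0.41, adjusted p = 0.00142). Its chaperone Bsg was at 4612 and 5056 against 9554 and 13037 (1.21 ± 0.27, adjusted p = 0.337). Slc16a1, the related transporter MCT1 and chosen after its values were seen, was at 1842 and 1561 against 1627 and 1339, with overlap. Car9, a carbonic anhydrase on the cell surface that helps to clear acid, was at 29 and 19 and rose to 250 and 538 (3.91 ± 0.38, adjusted p = 0.00247). Of the 10 genes of this list, 2 were called, beside 0.107% of all tested features. The list median was 0.20 (-0.01 without WT normoxia replicate 1).

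At the entry of pyruvate into the mitochondria, 1 of 14 genes was called, beside 0.107% of all tested features. Pdk1, a kinase that switches off pyruvate dehydrogenase, was at 253 and 336 and rose to 2402 and 3317 (3.27 ± 0.32, adjusted p = 0.00247). Its relative Pdk3 was at 518 and 639 against 692 and 670 (0.24 ± 0.22). The rest of the list had a median near that of all features: the list's median was 0.02, with 7 positive and 7 negative differences. TCA cycle enzymes gave the same picture, with 0 of 22 called, 0 at an unadjusted p under 0.05 and a median of -0.02.

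Glycogen enzymes, which store glucose, were not called (0 of 13), with 4 at an unadjusted p under 0.05 and all 4 higher. At that threshold 529 of all 12107 tested features were higher. Pgm2, a phosphoglucomutase, was at 602 and 781 against 1670 and 1962 (1.40 ± 0.26, adjusted p = 0.148). Gys1, the glycogen synthase of muscle and other tissues, was at 243 and 250 against 472 and 448, and Gbe1, the branching enzyme, at 254 and 229 against 359 and 419. Pygl, a glycogen phosphorylase, was at 6 and 13 against 23 and 113, so its difference of 2.40 ± 0.67 rests largely on 1 library.

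Of 19 tested genes of mitophagy and of mitochondria adapted to low oxygen, 5 were called, beside 0.107% of all tested features. Because the lists were chosen with earlier results of these data known, this count does not rank them. In this list 8 had an unadjusted p under 0.05, all higher, beside 529 of the 12107 tested features. The median difference was 0.67 (0.41 without WT hypoxia replicate 2 and 0.32 with the length trend removed). Bnip3, a receptor on the outer membrane that draws mitochondria into autophagy, was at 51 and 53 in normoxia and rose to 409 and 524 (3.13 ± 0.26, adjusted p = 0.0014). Its relative Bnip3l, chosen after its values were seen, was at 783 and 724 against 1724 and 2427 (1.44 ± 0.23, adjusted p = 0.0662). Fam162a, a mitochondrial protein known from hypoxic cell death, was at 1361 and 1060 and rose to 5635 and 14016 (2.89 ± 0.38, adjusted p = 0.0223), with the hypoxia libraries more than 2-fold apart. Higd1a, which helps respiratory complexes to persist, was at 165 and 156 and rose to 451 and 799 (1.90 ± 0.28, adjusted p = 0.0432). Ak4, an adenylate kinase of the matrix, was at 170 and 115 and rose to 638 and 513 (2.02 ± 0.26, adjusted p = 0.0223). Mgarp, a mitochondrial transport protein, was at 2 and 1 and rose to 32 and 85 (4.44 ± 0.61, adjusted p = 0.0272). Within WT, it passed the filter on low values through its hypoxia libraries alone, so its call is partly set by that filter (adjusted p = 0.0669 with no filter). Ndufa4l2, a stand-in for a respiratory subunit that was chosen after its values were seen, was at 4 and 1 against 23 and 102 (3.97 ± 0.78, adjusted p = 0.21).

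Subunits of the respiratory chain and ATP synthase showed a small shift in 1 direction and no call. Of 75 tested, 71 had a positive difference, 45 were higher without overlap and 1 lower (18.9% and 19.9% of all features), 0 reached 2-fold, and the median was 0.35 (0.23 without WT hypoxia replicate 2). Ndufa1, of complex I, was at 403 and 358 in normoxia and 523 and 933 in hypoxia (0.88 ± 0.28, adjusted p = 0.767), and Ndufs4, also of complex I, at 785 and 809 against 1053 and 1798 (0.79 ± 0.31). Transcript length moved with this shift: with the trend against length removed, the median of the list was 0.06, beside 1.22 for lower glycolysis. Mitochondrial ribosomal proteins had a median of 0.16 (0.03 without WT normoxia replicate 2), and of 0.04 with the length trend removed. In KO cells the median of the respiratory subunits was -0.24, with KO normoxia replicate 1 apart: the list's level, relative to each gene's mean over the 8 libraries, was 0.38 and -0.24 in KO normoxia and -0.11 and -0.25 in KO hypoxia.

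**Figure D2:**
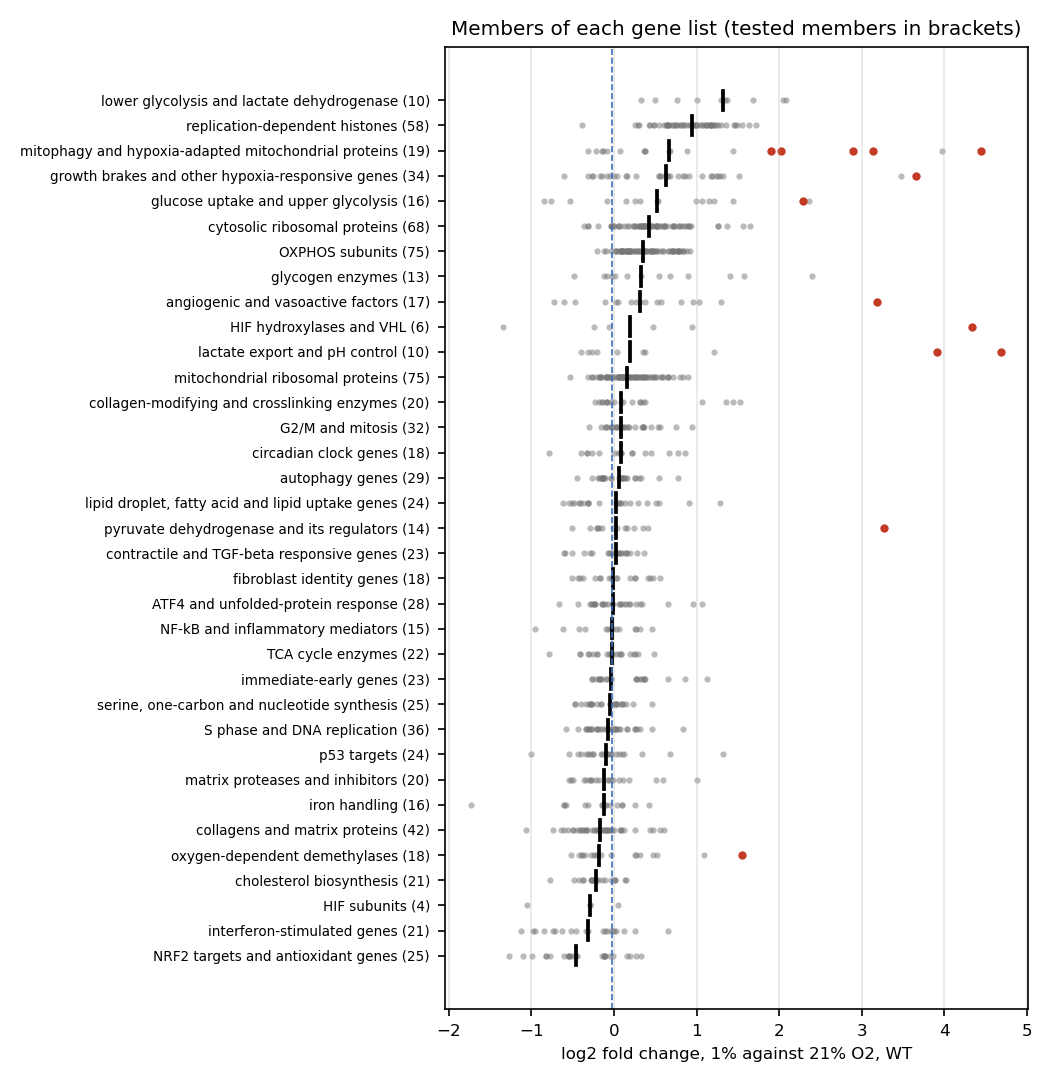
Log2 difference of hypoxia minus normoxia in WT for each tested member (grey points, red where called) of the gene lists, with a black bar at the list median and a dashed line at the median of all tested features (-0.02). Lower glycolysis (1.32), replication-dependent histones (0.95) and the mitophagy list (0.67) have the highest medians shown, and the NRF2 list (-0.46) the lowest.

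Among secreted factors that act on vessels, 1 of 17 tested genes was called, beside 0.107% of all tested features. Edn2, a vasoconstrictor peptide of the endothelin family, was at 3 and 4 and rose to 37 and 42 (3.18 ± 0.44, adjusted p = 0.0272). Within WT it too passed the filter on low values through its hypoxia libraries alone, and with no filter its adjusted p was 0.0669. Adm, the vasodilator adrenomedullin, was at 128 and 154 against 271 and 441 (1.29 ± 0.28, adjusted p = 0.287). Vegfa, the main growth factor of blood vessels, was at 539 and 705 against 1228 and 1171 (0.96 ± 0.28, adjusted p = 0.705), and Angptl4, a secreted inhibitor of lipoprotein lipase, at 216 and 293 against 348 and 564. All 4 had both hypoxia values above both normoxia values. The list median was 0.32 (0.09 without WT normoxia replicate 1).

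A list of growth brakes and other genes known to respond to hypoxia had 1 call among 34 tested (0.107% of all features). Without overlap 20 were higher and 4 lower (18.9% and 19.9% of all features), and the median was 0.63. Ankrd37 was at 35 and 30 and rose to 359 and 493 (3.66 ± 0.33, adjusted p = 0.00174). Ndrg1, a stress-responsive protein, was at 332 and 235 against 614 and 730 (1.26 ± 0.25, adjusted p = 0.211), and Ddit4, an inhibitor of mTORC1 signalling, at 260 and 204 against 604 and 550 (1.32 ± 0.27, adjusted p = 0.254). Gpr35, a G protein-coupled receptor, was at 1 and 1 against 16 and 28 (adjusted p = 0.206). Bhlhe40, a repressor in the clock list, was at 294 and 276 against 564 and 476, and Hilpda, which coats lipid droplets and slows their breakdown, at 246 and 163 against 467 and 509. None of the 24 lipid genes passed.

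No gene of collagen or of its processing passed the test. Of 20 enzymes that modify and crosslink collagen 0 were called, and the 4 with the smallest p were all hydroxylases that use oxygen. P4ha1, a prolyl 4-hydroxylase that stabilises the collagen helix, was at 2752 and 2841 against 6847 and 8454 (1.44 ± 0.23, adjusted p = 0.0699), and P4ha2 at 726 and 865 against 1873 and 2807 (1.53 ± 0.27, adjusted p = 0.133). Plod2, a lysyl hydroxylase that shapes crosslinks, was at 509 and 543 against 1221 and 1491 (1.36 ± 0.26, adjusted p = 0.207), and Plod1 at 436 and 391 against 776 and 977 (1.07 ± 0.24, adjusted p = 0.331). P4ha1 and P4ha2 did pass with the length trend removed, and P4ha1, P4ha2 and Plod2 with array weights. Over the whole enzyme list 11 differences were positive and 9 negative. Without overlap 5 of the 20 were higher and 3 lower, near the 18.9% and 19.9% of all features. The list median was 0.09 (-0.09 without WT normoxia replicate 1 and 0.33 when replicate 2 was left out instead). Of 42 collagens and matrix proteins 0 were called, 33 differences were negative and the median was -0.17, but the median was -0.60 and 0.21 when WT normoxia replicate 1 or 2 was left out, and -0.02 and -0.43 when WT hypoxia replicate 1 or 2 was. Nid1, a basement membrane linker, was at 9031 and 9758 against 5550 and 3617 (-1.07 ± 0.51), and Col4a1, a basement membrane collagen, at 3555 and 4818 against 3044 and 2604 (-0.56 ± 0.25).

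No gene passed the test in the lower direction, and 61 features (0.504% of those tested) were at least 2-fold lower without overlap. Among the 10 largest negative differences at an unadjusted p under 0.05 and a mean of at least 50 were Gsta4, a glutathione transferase, at 138 and 125 in normoxia and 57 and 51 in hypoxia (-1.27 ± 0.54), and Nqo1, a quinone reductase, at 3296 and 3178 against 1888 and 1214 (-1.10 ± 0.37). Limk1, a kinase of the actin cytoskeleton, was at 69 and 86 against 50 and 22, and Igf2bp1, an RNA-binding protein, at 71 and 83 against 46 and 27. The others were the transporters Slc29a3, Slc22a23 and Abcc4, the glycosyltransferase Mgat5, the junction protein Cgnl1 and Arnt2, with differences between -1.08 (Slc29a3) and -1.0 (Abcc4). Adjusted p values of the 10 ran from 0.622 to 0.784.

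Nqo1 belongs to the list of NRF2 targets, which protect against oxidants. Of its 25 tested members 0 were called, 7 had an unadjusted p under 0.05, all lower, 13 were lower and 0 higher without overlap, and the median was -0.46. Over all 12107 features 237 were lower at an unadjusted p under 0.05, and 19.9% were lower without overlap. Txnrd1, a thioredoxin reductase, was at 5274 and 4470 against 3215 and 1856 (-0.99 ± 0.32, adjusted p = 0.767), and Srxn1, a sulfiredoxin, differed by -0.77. Hmox1, which breaks down haem, differed by -0.60. The list median lay between -0.46 and -0.26 (the latter without WT normoxia replicate 1) when single libraries were left out, and was -0.53 with the length trend removed and -0.32 in KO cells. In the iron list, 0 of 16 were called, and Slc40a1, the iron exporter ferroportin, was at 21 and 29 against 9 and 5 (-1.73 ± 0.51, adjusted p = 0.705).

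**Figure D3:**
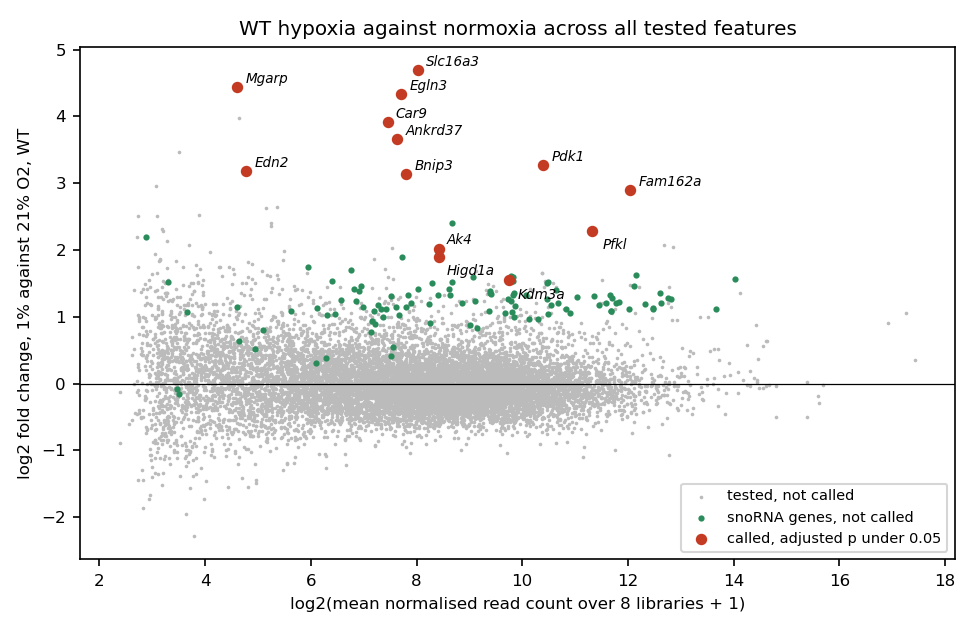
Log2 difference of hypoxia minus normoxia in WT (vertical axis) against the log2 of the mean value over the 8 libraries plus 1 (horizontal axis) for the 12107 tested features, with the 13 genes that rose in red and named and the snoRNA genes in green. The red points lie at 1.55 and above, the green ones have a median of 1.20, and no feature was called below 0.

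Short transcripts as a class were higher in hypoxia in WT. In the shortest of 10 equal bins of transcript length (median 966 bases) the median difference was 0.38, and in the longest (median 8362.5 bases) it was -0.23. In KO the bins ran from -0.13 to 0.29, but the KO normoxia libraries differed from each other in this respect: the slope of level on length, in log2 per doubling, was -0.17 in KO normoxia replicate 1 and 0.16 in replicate 2, and -0.03 and 0.13 in KO hypoxia. Features at least 2-fold higher without overlap had a median length of 1221 bases and 22.2% were snoRNAs, guides of RNA modification (0.859% of all tested features), whereas those at least 2-fold lower had a median length of 3755 bases and 0 snoRNAs. The median length of all tested features was 3432 bases. The library protocol was one for small RNA, its size selection is not given in the sources used, and the part of library preparation in this pattern was not tested.

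**Figure D4:**
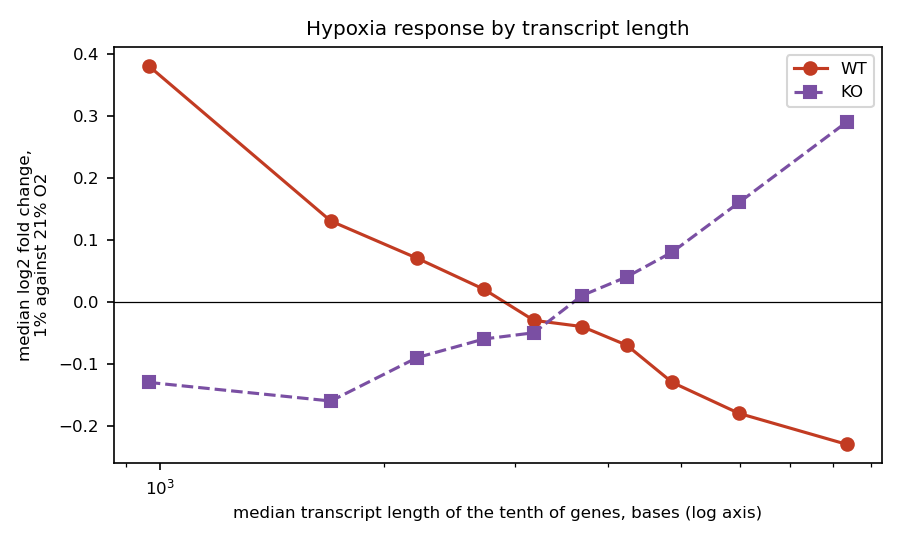
Median log2 difference of hypoxia minus normoxia in 10 equal bins of annotated transcript length (horizontal axis, median length of the bin in bases, log axis), for WT (red) and for KO (purple, dashed). The WT line runs from 0.38 in the shortest bin to -0.23 in the longest, and the KO line from -0.13 to 0.29.

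Values of most snoRNAs, a class chosen after its values were seen, were also higher in WT hypoxia. Of 104 tested, 0 were called (smallest adjusted p 0.484), and 31 had an unadjusted p under 0.05, beside 766 of all 12107 features. Of the snoRNA differences 102 were positive, with a median of 1.20. Without overlap 96 were higher and 85 of them reached 2-fold (18.9% and 3.16% of all features). Snord22, a box C/D snoRNA, was at 8639 and 6215 in normoxia and 20185 and 23306 in hypoxia (1.57 ± 0.48, adjusted p = 0.767). Their share of the total went with oxygen in WT, at 1.14% and 0.91% in normoxia and 2.64% and 2.05% in hypoxia. In KO the median difference of the snoRNAs was 0.78, beside -0.13 in the shortest length bin. The KO shares were 2.01% and 0.874% in normoxia and 4.14% and 1.22% in hypoxia. These overlapped because KO normoxia replicate 1 lay above KO hypoxia replicate 2. In KO 3 snoRNAs were higher without overlap, beside 15.9% of all tested features.

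Replication-dependent histone genes, whose short transcripts lack a poly(A) tail, had 0 calls among 58. Of these 33 had an unadjusted p under 0.05 and 49 were without overlap, all higher. Over all 12107 features 529 were higher at an unadjusted p under 0.05, and 18.9% were higher without overlap. The histone median was 0.95, or 0.47 with the length trend removed. In KO the median was -0.30, with list levels of 0.75 and -0.53 in normoxia and 0.06 and -0.47 in hypoxia, so that only replicate 1 was lower in hypoxia. Hist1h3b, a histone H3 gene, was at 406 and 321 against 764 and 1357 (1.49 ± 0.34, adjusted p = 0.356). Of 36 S phase genes and 32 genes of G2 and mitosis 0 were called, with medians of -0.07 and 0.09, the second -0.17 without WT normoxia replicate 2 and 0.33 without WT normoxia replicate 1. Cytosolic ribosomal proteins, 68 tested, had 0 calls and a median of 0.43 (0.27 without WT normoxia replicate 2 and 0.19 with the length trend removed). Rpl26, of the large subunit, was at 441 and 934 against 1446 and 2801 (1.65 ± 0.41). Histone and ribosomal protein genes have near-identical copies, so reads may be shared among them.

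Among the other lists, 0 members were called of ATF4 and the unfolded-protein response (28 tested), p53 targets (24), autophagy (29), cholesterol synthesis (21), immediate-early genes (23), inflammatory mediators (15), interferon-stimulated genes (21), clock genes (18), serine and nucleotide synthesis (25), matrix proteases (20) and contractile genes (23). Ero1l, an oxidase of the endoplasmic reticulum, differed by 1.06 ± 0.31, and Hyou1, a chaperone there, by -0.66. Cholesterol synthesis had a median of -0.22 (-0.11 without WT normoxia replicate 1) with 0 genes higher and 9 lower without overlap (18.9% and 19.9% of all features). The interferon list had a median of -0.31, which was -1.16 without WT hypoxia replicate 2 and 0.50 without WT normoxia replicate 2. It held 0 genes without overlap in either direction. For 20 of the 21 this was fixed by library number. Both WT libraries numbered 2 lay above both numbered 1 there, so the oxygen groups had to overlap.

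In KO cells the 13 genes moved in the same direction. The KO contrast uses other libraries than the WT contrast but shares its estimate of spread, and 7 of the 13 were called there (7 genes, 0.0578% of those tested, were called higher in KO). All 13 had both KO hypoxia values above both KO normoxia values, where 15.9% of tested features did. Egln3 was at 24 and 23 in KO normoxia and 367 and 344 in KO hypoxia (log2 difference 3.86, beside 4.33 in WT). Slc16a3 was at 25 and 9 against 634 and 606 (5.27 beside 4.69), and Bnip3 at 40 and 32 against 370 and 302 (3.19 beside 3.13). Fam162a, which had the smallest p for a difference between the genotypes among the 13, was at 1466 and 1137 against 4811 and 4356 (1.83 beside 2.89).

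The difference between the responses was tested as KO minus WT and was called for 0 of the 12107 features (0%), with a smallest adjusted p of 0.857. At an unadjusted p under 0.05, 380 features passed, where 605 would pass by chance. Among the 13 genes 0 reached an unadjusted p under 0.05, the smallest being 0.0728. The response was larger in WT for 9 and in KO for 4. The 13 genes were chosen by their WT change, which favours larger values in WT, so this split cannot compare the genotypes. For Fam162a the difference was -1.06 (95% interval -2.24 to 0.12), for Mgarp -1.42 (-3.33 to 0.49) and for Egln3 -0.47 (-1.40 to 0.47). For Bnip3 it was 0.06 (-0.76 to 0.87) and for Slc16a3 0.58 (-0.69 to 1.86). Differences of up to about the size of these bounds were not detectable with 2 libraries a group, and the 2 responses are not shown to be alike.

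**Figure D5:**
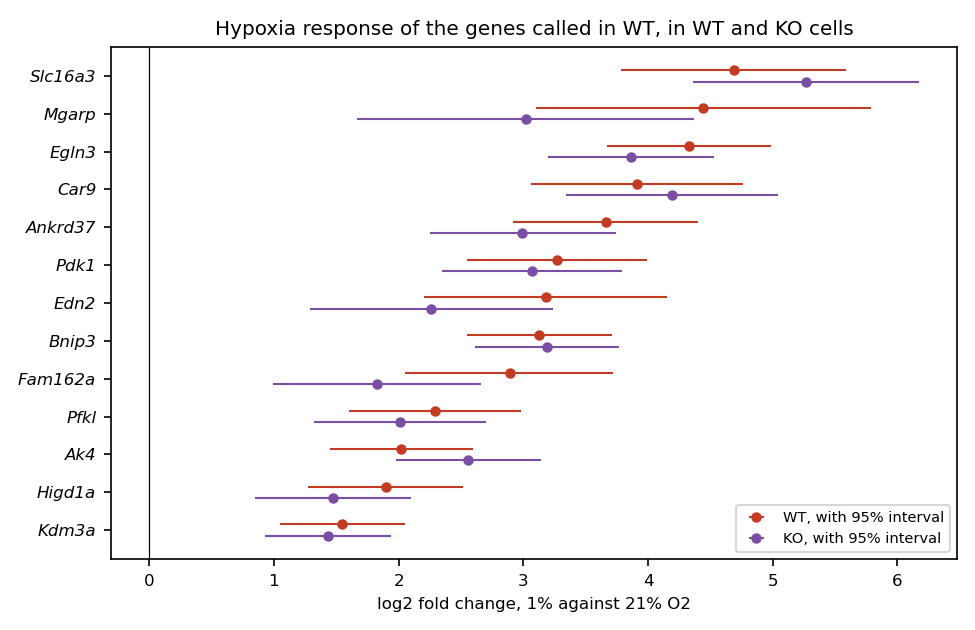
Log2 difference of hypoxia minus normoxia (horizontal axis) in WT (red) and KO (purple) for the 13 genes that rose in WT, with bars for the 95% interval. All 26 intervals lie above 0, which for the 13 WT intervals follows from the choice of genes called in WT. The WT point is farther right for 9 genes and the KO point for 4, among genes chosen by their WT change.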

How the data were processed

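The series holds 8 sequencing libraries of immortalised fibroblasts from mouse skin. Per the labels' protocols, a miRNeasy kit gave total RNA, and a small RNA library set of New England Biolabs for the SOLiD platform was used. The deposited table holds a score, the authors' normalised read counts as whole numbers with a lowest value of 1. How reads were aligned, counted (with or without strand) and normalised, and on which genome build, is not given in the sources used here. Overlapping genes, antisense partners and near-identical copies may share reads. Unused sample columns numbered 0.

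Reads were not recovered, because of rounding, so no count model was run. Depth was estimated from the spacing of low values (1 read was worth 0.792 to 1.188 in WT libraries), so a value near 10 rests on about 10 reads. Features that reached 10 in 2 or more of the 8 libraries entered the test, and 4984 did not. At that edge, WT values of the 115 features whose second-highest value was 10 had a median of 7, and those of the 99 features at 9 had a median of 6. Values were taken as log2(value + 1), which understates fold changes of low genes. All 8 libraries entered 1 model of the 4 groups in limma-trend (limma 3.58.1, statmod 1.5.0, R 4.3.3), with moderated two-sided tests on 10.2 degrees of freedom. All p values of genes are limma's, adjusted by Benjamini and Hochberg over the 12107 features at a threshold of 0.05. An exact test of 2 libraries against 2 cannot go below 0.333. "Without overlap" means that both values of a group lie above or below both values of the other.

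Members and gene lists (41 lists, 1069 entries, 903 of 1026 distinct genes tested) were chosen with earlier results of these data known. Named are every called gene, up to 4 members per list with the smallest p, up to 10 genes per direction with the largest change among those with an unadjusted p under 0.05, a mean of at least 50 and no overlap, and whole lists under 8 members. Other genes are said to be chosen after their values were seen. Lengths came from GENCODE M21 by symbol (93.1% of tested features). Promoter windows came from RefSeq (GRCm38.p6), for 72.6% of tested features and all 13 called genes. The fit was run on simulated data with independent noise in each library. Same-numbered WT libraries share deviations, so that run does not speak to their spread, and its outcome is not given here. Alternatives covered the pseudocount, filter, scaling, small RNA genes, mean trend, robust fit, array weights, length trend, a replicate block and leaving out each library.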

Additional observations from a re-analysis of the deposited data

How the results depend on the processing

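Of the genes called in WT, 13 were higher and 0 lower, and the count lower stayed 0 under all alternatives, as did the count of genes whose response differed between WT and KO. The count higher was 6 with no filter on low values, 21 with array weights, 20 with the length trend removed, and 7 in a fit to the 4 WT libraries alone. Without the small RNA genes it was 17, and without the mean trend 9. Leaving out single libraries gave 1 (without WT hypoxia replicate 2) to 20 (without either KO normoxia library), and leaving out both WT hypoxia replicate 2 and KO normoxia replicate 1, which was chosen after seeing the data, gave 6. With the replicate block it was 19, among them 13 of the 13 and also Pgk1, Ldha and Tpi1. The numbers are not said to pair the libraries: deviations of same-numbered libraries correlated at 0.57 in WT and 0.23 in KO, and at -0.11 to 0.11 across genotypes. Egln3 was past the threshold under every alternative run. The cause of these moves was not tested. Depth limits genes such as Epas1 and Mgarp, whose values rest on few reads.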

Other observations

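Several genes differed more between the WT libraries numbered 1 and those numbered 2 than between oxygen levels. They were chosen after their values were seen, by the size of that gap, and carry no test. Apoe, a lipid carrier, was at 19 and 17 in normoxia and hypoxia of number 1 and at 312 and 307 in those of number 2. Igfbp5, a binding protein for insulin-like growth factors, was at 13 and 26 against 360 and 166, and Abi3bp, a matrix protein, at 13 and 17 against 310 and 210. Mgp, which inhibits calcification, was at 505 and 531 against 3480 and 5112, and Ogn, a small matrix proteoglycan, at 593 and 618 against 3307 and 7805. Mmp3, a matrix-degrading protease, was at 16 and 27 against 279 and 124.

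The gene lists showed the same split. Of 21 interferon-stimulated genes, 20 were higher in both libraries numbered 2 without overlap, with a median gap of 1.45 on the log2 scale. Xaf1, an interferon-induced gene, was at 6 and 1 against 30 and 22. Of 42 collagens and matrix proteins, 28 were higher in number 2 (median 0.53), as were 12 of 18 fibroblast identity genes (0.49) and 12 of 20 matrix proteases (0.69). Genes of G2 and mitosis lay the other way, with 20 of 32 lower in number 2 (median -0.40), as did serine and nucleotide synthesis, with 15 of 25 lower (-0.24). Over all 12107 tested features, 2594 were higher and 2686 lower in number 2 without overlap. Fabp4, a lipid-binding protein of adipocytes, was at 4 and 4 against 46 and 94.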
